A study of Mus musculus with 24 samples.

Results

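Transcripts of the cytosolic ribosomal protein genes were measured in exorbital lacrimal glands of adult, age-matched female and male mice of 2 autoimmune strains. MRL/MpJ-Tnfrsf6lpr (MRL/lpr) mice carry the lpr mutation of Fas, a death receptor of lymphocytes, and nonobese diabetic/LtJ (NOD) mice develop autoimmunity with no lpr allele. Both strains are models of Sjögren syndrome, glands were taken after disease onset, and no nonautoimmune strain was analysed, so every difference below is between autoimmune mice. Each of the 4 groups of sex and strain held 3 RNA pools, with glands of 5 to 8 mice in a pool, and cRNA was hybridized to CodeLink and Affymetrix arrays, 12 of each. The CodeLink sample titles carry the word Placebo for every group, and no agent is given in the sources used here. Because the same preparations went onto both platforms, the platforms are 2 readings of 1 set of pools and not separate replicates. The genes were chosen by symbol alone: Rpsa, and every Rpl or Rps symbol followed by a number with or without a paralog suffix, without the Rps6k kinases, mitochondrial ribosomal proteins and pseudogenes. A probe that named 1 gene was found for 60 such genes, 55 of them among the 10956 genes of CodeLink and 43 among the 12393 of Affymetrix, with 38 on both. After dim probes were left out, 54 genes were tested on CodeLink and 42 on Affymetrix, 37 on both and 59 on either.

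The cytosolic ribosome is built of a small subunit, which reads the mRNA and holds the Rps proteins, and a large subunit, which forms the peptide bonds and holds the Rpl proteins. The proteins are needed in equal numbers with ribosomal RNA, and their mRNAs are among the most abundant in secretory cells such as the acinar cells of the lacrimal gland, which export protein into tears. In mammals, many of these mRNAs start with a C followed by a run of pyrimidines, the 5′ terminal oligopyrimidine (TOP) motif, through which mTOR signalling sets how much of each mRNA is translated. The arrays measured mRNA levels and gave no reading of translation.

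The sequences around the start sites show what the genes share beyond their symbol. RefSeq promoter entries of build GRCm38.p6 were matched by symbol for 50 of the 60 genes, in 61 windows. A run of at least 8 C or T bases within 15 bases either side of the start was found in 20 of the 61 windows (32.8%), compared with 12% of all 32851 windows in the table. The motif CCGGAAG, searched on both strands from 250 bases before to 50 after the start, was found in 23 of the 61 windows (37.7%), compared with 8.86% of all windows. The table of all windows includes non-coding genes, a match is a description of letters and not a site, and no count below was tied to it. The 30 bases centred on the annotated start are shown for 8 genes whose values are given below, with the pyrimidine run in capitals where one of at least 8 bases was found.
Rps9, chr7:3704026-3704055, plus strand: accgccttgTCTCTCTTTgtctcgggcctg
Rps6, chr4:86857353-86857382, minus strand: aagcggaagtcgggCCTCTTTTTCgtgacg
Rpl14, chr9:120571502-120571531, plus strand: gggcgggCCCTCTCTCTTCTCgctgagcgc
Rps24, chr14:24490663-24490692, plus strand: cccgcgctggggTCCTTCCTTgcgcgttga
Rps18, chr17:33955651-33955680, minus strand: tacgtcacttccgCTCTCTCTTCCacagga
Rps26, chr10:128626492-128626521, minus strand: gtcgggcaagccgccggaTCCTCTTTCgag
Rps15, chr10:80292416-80292445, plus strand: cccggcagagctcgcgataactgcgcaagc
Rplp0, chr5:115559452-115559481, plus strand: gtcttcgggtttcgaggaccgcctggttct
The first 6 of these windows held such a run, and those of Rps15 and Rplp0 did not. Where a gene had several windows, one with a run was shown if there was any, and Rps24 had 2 windows. The 8 genes are examples and do not give the share among the genes. By gene, 20 of the 50 matched had such a run (40%), compared with 13.9% of all genes. The CCGGAAG motif stood in the longer windows of Rps6, Rps18 and Rps26.

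Several measures of whole arrays have to stand beside the results. Markers of salivary gland were high in some pools of females: their summed Affymetrix signal over 5 of 6 markers was 77313 in MRL/lpr female pool 1, 13042 in NOD female pool 2 and 260167 in NOD female pool 3, compared with 217 to 1898 in the other 9 pools. The same 3 pools had the highest sums on CodeLink, over 2 of the 6 markers, at 1109, 327 and 4138. NOD female pool 1 was at 46.1 there, and the other pools at 7.65 or less. Counts are therefore also given without MRL/lpr female pool 1 and NOD female pool 3, the 2 pools with the highest sums, a choice made after the values were seen. NOD female pool 2 was kept in those counts. Infiltrating cells also differed: the summed Affymetrix signal of 6 of 7 B cell markers was 7993 to 10155 in NOD males, compared with 1206 to 1426 for females and 405 to 887 for males of MRL/lpr, and 559.8 to 857 for females of NOD. Lacrimal acinar markers ran the other way in NOD mice, with an Affymetrix sum over all 8 of 126535 to 132236 in females and 60428 to 65584 in males, and of 88343 to 131291 for females and 87097 to 94164 for males of MRL/lpr. On CodeLink the sum over 6 of the 8 was higher in females of both strains without overlap, at 686 to 903 for females and 295 to 379.7 for males of MRL/lpr, and 639.9 to 886 for females and 182 to 233 for males of NOD. Array brightness differed too: the deposited Affymetrix signals had 2% trimmed means between 26.9 and 74.1 before they were rescaled to a trimmed mean of 500. For CodeLink, the raw intensity that equals 1 normalized unit was lowest on the arrays of NOD females, at 11.4 to 12.6. Arrays of NOD males had 13.4 to 20.1, those of MRL/lpr males 15.9 to 17.8 and those of MRL/lpr females 19.7 to 28.4. The group with the highest CodeLink medians below was therefore also the group with the dimmest CodeLink arrays. The part of these measures in the results below was not tested. In whole glands, fewer cells of a type and less RNA per cell cannot be told apart.

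The median level of the ribosomal protein mRNAs was higher in females of both strains on CodeLink and in NOD females on Affymetrix, and it was highest in NOD females on both platforms. In MRL/lpr mice the Affymetrix pools of the sexes overlapped, and the order of their means turned after quantile normalization. On CodeLink, whose values are background-subtracted intensities divided by a factor that brings the array near a median of 1, the median over the genes was 276 ± 18.5 (SD, n = 3) for females and 209 ± 16.5 for males of MRL/lpr, and 359 ± 26.9 for females and 219 ± 25.1 for males of NOD. Single pools ran from 258 to 295, 191 to 224, 343 to 389.7 and 201 to 248. So both female groups lay above both male groups without overlap, NOD females lay above MRL/lpr females, and the male groups overlapped.

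On Affymetrix, on the signal scale with a trimmed mean of 500, the median over the genes was 27662 ± 3017 for females and 24893 ± 1789 for males of MRL/lpr, and 33508 ± 671 for females and 25159.5 ± 1081 for males of NOD (SD, n = 3). The NOD female pools, at 32792 to 34121, again lay above all others, while the MRL/lpr female pools, at 24984 to 30930.3, overlapped both male groups. After quantile normalization, which gives all arrays of a platform 1 common distribution of values, the CodeLink medians were 278 ± 4.52, 232 ± 5.75, 289 ± 12.8 and 244 ± 22.1 in the same order of groups, and those on Affymetrix were 27418 ± 178, 27542 ± 1115, 29369 ± 556 and 26460.2 ± 584. The order of NOD females above NOD males held, and the gap narrowed on both platforms. The brightest Affymetrix array had the lowest median in 3 of the 4 groups before quantile normalization and in 2 of 4 after it. It had the highest median in 1 of 4 both times. On CodeLink the brightest array had the lowest median in 0 of 4 groups before and after. There it had the highest in 1 of 4 before and 2 of 4 after.

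**Figure D1:**
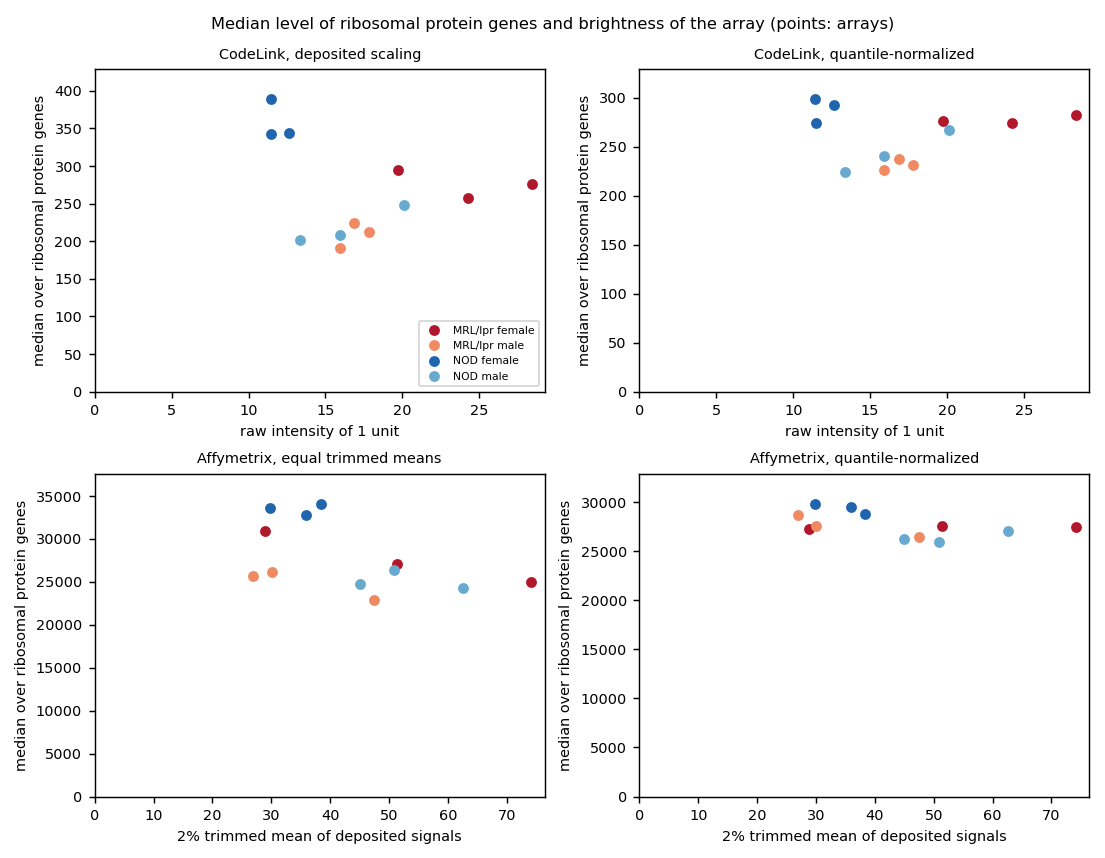
Each point is 1 array, coloured by sex and strain. The vertical axis is the median level over the ribosomal protein genes, as CodeLink normalized intensity or Affymetrix rescaled signal, before (left) and after (right) quantile normalization, and the horizontal axis is the brightness of the array before scaling (raw intensity of 1 CodeLink unit, or the trimmed mean of the deposited Affymetrix signals). In the left panels the 3 NOD female arrays sit highest on both platforms, at 343 to 389.7 on CodeLink and 32792 to 34121 on Affymetrix, and in the right panels the groups lie closer together.

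**Figure D2:**
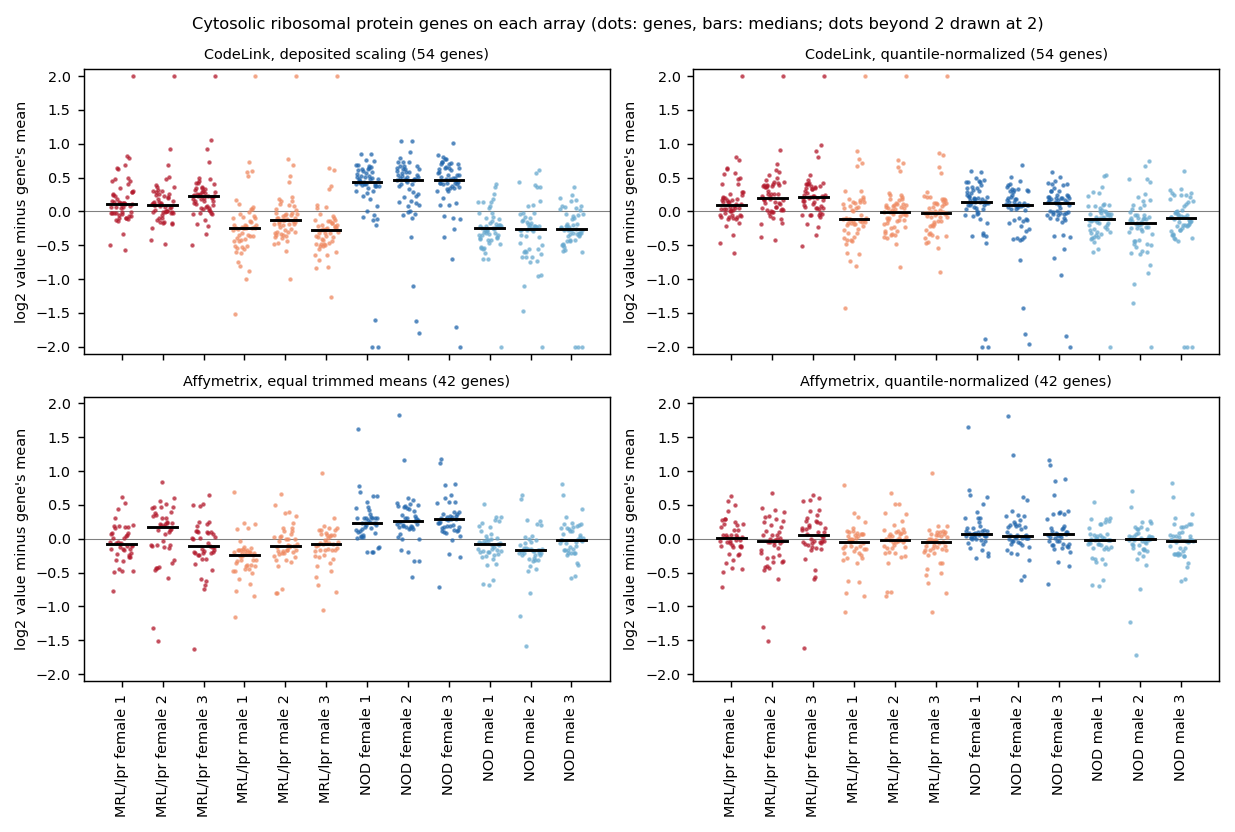
Each dot is 1 ribosomal protein gene on 1 array, as its log2 value minus its mean over the 12 arrays of the platform, with a bar at the median of the array and dots beyond 2 drawn at 2, before (left) and after (right) quantile normalization. The bars of the 3 NOD female arrays are the highest in both left panels, and the dots at the limit in the CodeLink panels include Rps9.

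The first question was which of the genes differed between the sexes of MRL/lpr mice. On CodeLink, 21 of 54 were higher in females and 2 were lower by limma (adjusted p under 0.05 by Benjamini-Hochberg over all tested probes), compared with 15.9% of all tested genes higher in females and 7.61% lower. The median log2 difference over the 54 was 0.36, compared with 0.08 over all 8728 genes and 0.12 over the 820 other genes among the brightest 10%, where 53 of the 54 lay. After quantile normalization 10 were higher and 2 lower, with 14.5% and 9.39% of all genes, and the median was 0.22. The count of 23 fell to between 12 and 20 when any 1 of the 6 MRL/lpr arrays was left out: it was 14, 15 and 14 without female pools 1, 2 and 3, and 15, 20 and 12 without male pools 1, 2 and 3. It was 13 without MRL/lpr female pool 1 and NOD female pool 3 together. Calls over all genes fell too, from 1384 higher and 664 lower of 8728. Without 1 of the 6 arrays they were 902 to 1237 and 524 to 582. Without the 2 pools they were 963 and 575 of 8575.

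Rps14, Rpl6 and Rpl31 had the largest differences among the genes called higher in females. Rps14, a small subunit protein whose reduced dosage is known from a human myelodysplastic syndrome, measured 634, 684 and 584 in the females and 368, 341 and 283 in the males, so the groups were far apart, with a log2 difference of 0.94 ± 0.14 (SE) and an adjusted p of 0.00035 by limma. On Affymetrix its brightest set gave -0.04 and its second set 0.15 for the same comparison (adjusted p = 0.93 and 0.60 by limma). Rpl6, a large subunit protein, measured 565, 542 and 653 in females and 259, 381 and 292 in males on CodeLink, a difference of 0.93 ± 0.14 (adjusted p = 0.00044, limma). Rpl31, at the exit of the peptide tunnel, measured 179, 138 and 137 and 65.9, 91.9 and 87.5 (0.89 ± 0.17, adjusted p = 0.0022). The groups of all 3 did not overlap, and all 3 calls held after quantile normalization, at 0.91, 0.76 and 0.77. The other 18 that were higher ran from 0.35 for Rps10 to 0.69 for Rpl22. By subunit, 16 of 35 large subunit genes rose and 2 fell, with a median of 0.49, while 5 of 19 small subunit genes rose and none fell, with a median of 0.29; the difference between subunits was not tested.

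The 2 exceptions were Rpl8 and Rpl10, both of the large subunit. Rpl8 intensities were 45.0, 47.9 and 53.3 in females and 100.3, 115 and 105 in males, 2.19-fold higher in males (log2 difference -1.12 ± 0.21, adjusted p = 0.0018 by limma). Rpl10, encoded on the X chromosome and joined late to the large subunit, was 329, 346 and 331 in females and 435, 410.0 and 426 in males (-0.34 ± 0.10, adjusted p = 0.035). The female values of both lay below all male values, and the Rpl10 call was lost without MRL/lpr female pools 1, 2 or 3 or MRL/lpr male pools 1, 2 or 3 (adjusted p up to 0.097).

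The same comparison was made on Affymetrix. Of 42 genes, 4 were higher in females and 1 was lower, compared with 7.31% and 6.65% of all 9552 genes, and the median difference was 0.19, compared with -0.00 over all genes and -0.03 over the 923 other genes among the brightest 10%, where 33 of the 42 lay. After quantile normalization 5 were higher and 2 lower (7.10% and 6.77% of all genes), with a median of 0.08. The count of 5 was 2 without MRL/lpr female pool 1 or male pool 1, 8 without female pool 3, and 2 without the 2 pools with the highest salivary markers. Over all genes, 698 were called higher and 635 lower of 9552. These were 458 and 492 without female pool 1, 621 and 515 without male pool 1, and 617 and 591 without female pool 3. Without the 2 pools they were 449 and 480 of 9326, and 41 of the ribosomal protein genes were tested. The 5 genes called with all arrays were Rpl27 (0.48 ± 0.12), Rpl4 (0.45 ± 0.15), Rps19 (0.44 ± 0.14), Rpl8 (0.42 ± 0.13) and, in the other direction, Rps9 (-0.56 ± 0.13). Rpl27 and Rpl4 were higher in females on both platforms, and Rpl8 was called in opposite directions. Of the 37 genes tested on both platforms, 23 had the same sign on both.

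Rpl4, a core protein of the large subunit, was the gene with the same call on both platforms, in both strains and under both scalings. Its CodeLink intensities were 368, 299.99 and 374 for females and 255, 224 and 214 for males of MRL/lpr, and 521, 559.7 and 546 for females and 298, 280.3 and 310.4 for males of NOD. On Affymetrix its signals were 59652, 76759.9 and 52467 for females and 41974, 44953 and 49485 for males of MRL/lpr, and 64539, 64592 and 63699 for females and 39816, 37633 and 45105 for males of NOD. In each strain every female value lay above every male value on both platforms. The log2 differences were 0.58 ± 0.12 in MRL/lpr and 0.87 ± 0.12 in NOD on CodeLink, and 0.45 ± 0.15 and 0.66 ± 0.15 on Affymetrix, with limma adjusted p of 0.0027, 8.4e-05, 0.042 and 0.0025. The Affymetrix call in MRL/lpr mice was lost without MRL/lpr female pools 1 or 2 or MRL/lpr male pools 1 or 2 (adjusted p up to 0.14). After quantile normalization the differences were 0.41, 0.38, 0.52 and 0.33.

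Rpl27, of the large subunit, was called on both platforms in both strains before quantile normalization. CodeLink gave 65.8, 80.6 and 84.7 for females and 46.3, 56.3 and 44.0 for males of MRL/lpr, and 114, 93.9 and 72.4 for females and 43.0, 41.9 and 53.9 for males of NOD. Affymetrix gave 18421, 21024 and 17356 for females and 12868, 14206 and 13379.9 for males of MRL/lpr, and 17508, 19151 and 19879 for females and 13279, 14301 and 14396 for males of NOD. Both other Affymetrix probe sets of Rpl27 alone were also higher in females, by 0.73 and 0.51 in MRL/lpr and by 0.52 and 0.59 in NOD mice on the log2 scale, each with adjusted p under 0.05 by limma. The brightest probe set differed by 0.48 ± 0.12 and 0.43 ± 0.12 (adjusted p = 0.0087 and 0.018), and CodeLink by 0.65 ± 0.18 and 0.99 ± 0.18 (0.02 and 0.001).

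The sexes of NOD mice were compared in the same way. On CodeLink, 37 of 54 genes were higher in females and 1 was lower, compared with 22.7% and 13.0% of all tested genes. The median log2 difference was 0.71, compared with 0.14 over all genes and 0.43 over the other genes of the brightest 10%, and 49 of the 54 differences were above 0. After quantile normalization 20 were higher and 3 lower (15.5% and 14.9% of all genes), with a median of 0.24, compared with 0.04 over the other genes of the brightest 10%. The count of 38 in either direction was 37 without the 2 pools with the highest salivary markers. Over all genes, 1984 higher and 1136 lower of 8728 became 2019 and 1060 of 8575. Large subunit genes were higher in 28 of 35, with a median of 0.81, and small subunit genes in 9 of 19 with 1 lower, with a median of 0.61.

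Rpl23, Rpl26 and Rpl37, all of the large subunit, had the largest differences among the genes called higher in females. Rpl23 measured 616, 936 and 748 in NOD females and 309, 163 and 314 in NOD males, a log2 difference of 1.59 ± 0.23 (adjusted p = 0.00015, limma). Rpl26, which in human cells also binds p53 mRNA, measured 45.8, 45.7 and 55.7 in females and 19.4, 14.5 and 21.3 in males (1.40 ± 0.18, adjusted p = 5.4e-05). Rpl37 differed by 1.08 ± 0.13 (adjusted p = 3.9e-05). The female and male pools of each were fully apart, and after quantile normalization the differences were 1.02, 1.06 and 0.54. Rpl37 had a difference of -0.04 on Affymetrix (adjusted p = 0.93), and Rpl23 and Rpl26 had no tested probe set of their own there.

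On Affymetrix, 14 of 42 genes were higher in NOD females and 1 was lower, compared with 6.97% and 9.46% of all genes. The median was 0.37, compared with -0.00 over all genes and 0.13 over the other genes of the brightest 10%, and 40 of the 42 differences were above 0. After quantile normalization 8 were higher and 1 lower (6.94% and 8.86% of all genes), with a median of 0.10. The count of 15 was 6 without NOD male pool 2, 8 without NOD female pool 2 or male pool 1, and 9 without the 2 pools with the highest salivary markers. Over all genes, 666 were called higher and 904 lower of 9552. These were 484 and 647 without male pool 2, 555 and 812 without female pool 2, and 521 and 671 without male pool 1. Without the 2 pools they were 488 and 699 of 9326, with 41 of the ribosomal protein genes tested. Of the 37 genes on both platforms, 7 were higher in females on both (Rpl4, Rpl7, Rpl10a, Rpl27, Rps18, Rps26 and Rps27l), 1 was called in opposite directions (Rps15), 16 were called on CodeLink only and 5 on Affymetrix only. The same sign was found for 32, and after quantile normalization for 20, when Rpl4, Rpl10a and Rpl27 were the genes higher on both.

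Rps26, which sits where mRNA leaves the small subunit, measured 25449, 21821 and 24006 in NOD females and 12691, 12029.6 and 12788 in NOD males on Affymetrix, 1.90-fold higher in females (log2 difference 0.92 ± 0.13, adjusted p = 1.3e-05 by limma). CodeLink gave 333, 293 and 334 and 216, 194 and 202 (0.65 ± 0.10, adjusted p = 0.0004). No pools overlapped on either platform. Rpl10a, a large subunit protein, measured 34427, 36321 and 36316 in NOD females and 22567, 21748 and 24151 in NOD males on Affymetrix, and 429, 415 and 474 and 262, 192 and 272 on CodeLink. Its differences were 0.64 ± 0.12 and 0.87 ± 0.15 (adjusted p = 0.00049 and 0.00061), and NOD females were also above MRL/lpr females on both platforms, by 0.55 ± 0.12 and 0.82 ± 0.15 (0.0035 and 0.0019). Rps18, of the small subunit head, was called on its brightest set (0.44 ± 0.14) and on CodeLink (0.65 ± 0.12). Its next 2 Affymetrix sets gave 0.19 and 0.92 (adjusted p = 0.54 and 8.2e-05 by limma), and a dim set gave 0.24 (0.83).

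Rps9, which lies near the mRNA entry of the small subunit, was the 1 gene called lower in females on Affymetrix in each strain. Its signals were 8216, 9226 and 10258 for females and 13331, 14558 and 12879 for males of MRL/lpr, and 10451, 9149 and 9516 for females and 14304, 13165 and 15534 for males of NOD. Females lay below males by -0.56 ± 0.13 in MRL/lpr and -0.56 ± 0.13 in NOD mice (adjusted p = 0.0036 and 0.0029 by limma), with no overlap in either strain. CodeLink gave 0.28 in MRL/lpr and -0.60 in NOD mice (adjusted p = 0.71 and 0.31), and the other 2 Affymetrix sets gave 0.46 and -0.07 in MRL/lpr mice and 0.46 and -0.43 in NOD mice, with no call.

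**Figure D3:**
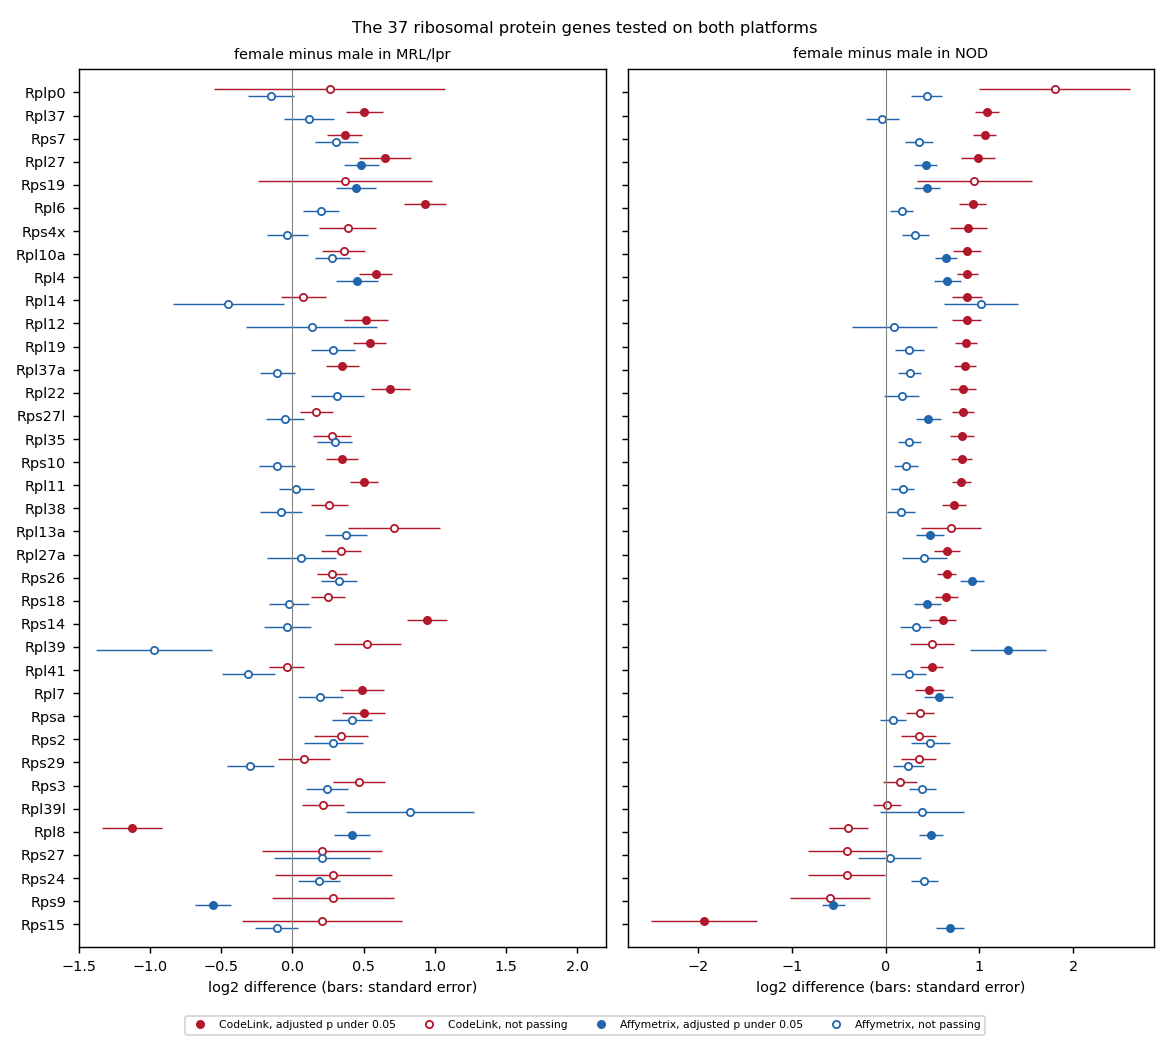
Female minus male log2 difference (horizontal axis, bars for the standard error) of the 37 genes tested on both platforms, with a row for each gene, a panel for each strain, red for CodeLink and blue for Affymetrix, filled where the adjusted p was under 0.05. In NOD mice 32 of the 37 pairs have the same sign and 7 are filled on both platforms above 0, and in MRL/lpr mice 23 and 2.

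**Figure D4:**
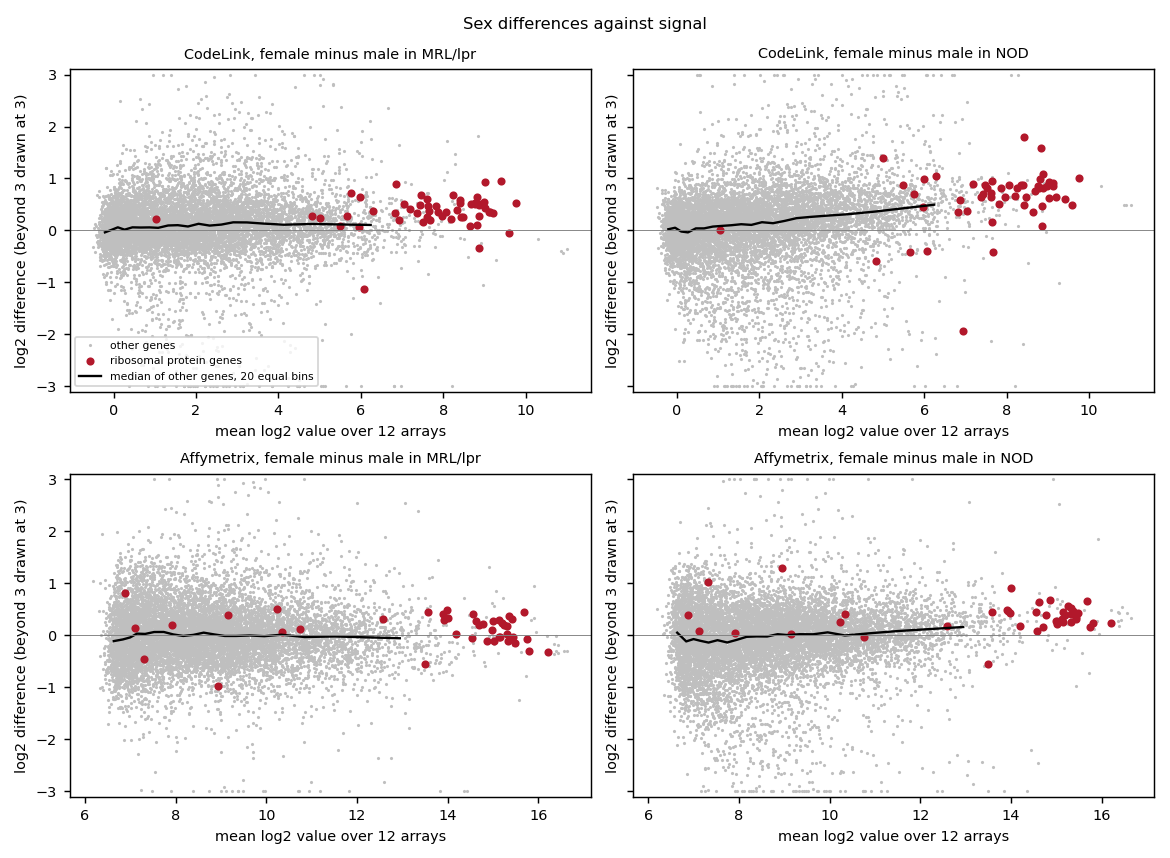
Female minus male log2 difference (vertical axis, points beyond 3 drawn at 3) against mean log2 value over 12 arrays (horizontal axis) for the ribosomal protein genes (red) and all other tested genes (grey), with a panel for each platform and strain and a line for the median of the other genes in 20 equal bins. Most ribosomal protein genes lie at the bright end, where the line for CodeLink in NOD mice rises too; the median there was 0.43 over the other genes of the brightest 10% and 0.71 over the ribosomal protein genes.

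Whether the sex difference itself differed between the strains was tested as the difference in NOD minus the difference in MRL/lpr. On CodeLink it was larger in NOD for 10 of 54 genes and smaller for 0 (limma), compared with 11.3% and 11.2% of all genes. The median was 0.33, and 0.34 over the other genes of the brightest 10%. Among the 10 called genes Rpl26 (1.16 ± 0.25), Rps21 (0.88 ± 0.18), Rpl14 (0.79 ± 0.22) and Rps7 (0.69 ± 0.17) had the largest differences, and after quantile normalization 1 gene was larger and 1 smaller (9.48% and 12.4%). The count of 10 was 5 without MRL/lpr female pool 1, female pool 2 or male pool 2, 6 without MRL/lpr male pool 3, and 6 without the 2 pools with the highest salivary markers. Over all genes, 990 were larger and 980 smaller with every array. These were 813 and 836, 764 and 878, 750 and 858, 846 and 860, and 986 and 864 in the same order of fits. On Affymetrix the sex difference was larger in NOD for 3 of 42 (Rpl39, Rps15 and Rps26) and smaller for 0, compared with 4.55% and 7.30%, and 3 and 1 after quantile normalization (4.82% and 7.16%). The count of 3 was 9 without MRL/lpr female pool 2 and 1 without the 2 pools with the highest salivary markers. Over all genes, 435 larger and 697 smaller became 506 and 670, and 295 and 511, in these fits. Before quantile normalization no gene was called on both platforms, and after it Rps15 was called on both in opposite directions.

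Markers of the cells in the gland also differed between the sexes, in directions that varied with cell type, strain and platform. In NOD mice 4 of 8 acinar markers were higher in females on Affymetrix and none lower (median 0.57), and 3 of 6 were higher on CodeLink (0.65). B cell, T cell and macrophage markers fell in NOD females: 5 of 6, 4 of 7 and 7 of 7 on Affymetrix, and 4 of 6, 3 of 4 and 3 of 3 on CodeLink. In MRL/lpr females 2 of 6 B cell, 1 of 7 T cell and 5 of 7 macrophage markers were higher on Affymetrix, and 1 of 6, 3 of 4 and 3 of 3 on CodeLink, with none lower. Of 6 neutrophil markers on each platform, females had 5 higher in the MRL/lpr and 1 in the NOD strain, with none lower. Acinar markers in MRL/lpr mice gave 2 higher and 2 lower in females on Affymetrix (0.06) and 3 and 1 on CodeLink (0.34). For the other marker lists on Affymetrix, the numbers higher and lower in females, first in MRL/lpr and then in NOD mice, were 1 and 0, then 0 and 1 of 5 plasma cell, 0 and 0, then 1 and 1 of 5 duct, 2 and 0, then 2 and 0 of 6 myoepithelial, 2 and 0, then 0 and 2 of 6 fibroblast, 0 and 0, then 0 and 1 of 5 endothelial, and 2 and 0, then 1 and 0 of 2 adipocyte markers. On CodeLink these numbers were 2 and 1, then 0 and 1 of 4 plasma cell, 3 and 0, then 1 and 2 of 6 duct, 5 and 0, then 3 and 0 of 5 myoepithelial, 2 and 0, then 0 and 0 of 6 fibroblast, 0 and 0, then 0 and 1 of 3 endothelial, and 3 and 0, then 2 and 1 of 3 adipocyte markers. The summed myoepithelial markers were higher in females of both strains without overlap, at 8812 to 10483 for females and 4616 to 5162 for males of MRL/lpr, and 5583 to 6413 for females and 3266 to 3894 for males of NOD on Affymetrix. On CodeLink the same sums were 94.9 to 112 and 49.2 to 58.7, and 64.0 to 96.3 and 45.7 to 54.8. The 1 skeletal muscle marker tested on each platform gave no call, and of 5 salivary gland markers on Affymetrix 0 were higher and 1 lower in MRL/lpr females, and 3 and 1 in NOD females, compared with 0 and 0, and 1 and 0, of 2 on CodeLink. The part of cell content in the ribosomal protein values was not tested.

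Strain was compared within each sex. Strain, age, pool size and any batch of processing cannot be told apart here. In females, 19 of 54 CodeLink genes were higher in NOD and 3 were lower, compared with 16.2% and 9.09% of all genes, and the median was 0.28, compared with 0.36 over the other genes of the brightest 10%. After quantile normalization 3 were higher and 5 lower (9.71% and 10.4%), with a median of -0.06. Affymetrix gave 8 higher and 1 lower of 42, compared with 4.04% and 6.89%, with a median of 0.26, and after quantile normalization 7 and 4 (4.09% and 6.46%), with a median of 0.04. The Affymetrix count of 9 was 14 without MRL/lpr female pool 2 and 5 without the 2 pools with the highest salivary markers, and the CodeLink count of 22 was 14 without those 2 pools. Over all Affymetrix genes, 386 higher and 658 lower became 400 and 559, and 190 and 357. On CodeLink 1412 and 793 of all genes became 1280 and 580. So the sign of the median strain difference in females depended on the scaling on CodeLink.

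In males CodeLink gave 4 higher and 5 lower in NOD of 54, compared with 17.0% and 9.78% of all genes, with a median of 0.00, and after quantile normalization 4 higher and 10 lower (16.5% and 12.1%). Affymetrix gave 4 higher and 2 lower of 42, compared with 7.18% and 6.85%, with a median of 0.03, and after quantile normalization 5 and 4 (7.11% and 7.03%). No gene was called the same way on both platforms in males before quantile normalization.

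Among the genes called for strain, Rps14 was higher in NOD mice of both sexes on CodeLink. Its intensities were 634, 684 and 584 for females and 368, 341 and 283 for males of MRL/lpr, and 1024, 1406 and 1366 for females and 814, 897 and 762 for males of NOD. The differences were 0.98 ± 0.14 in females and 1.32 ± 0.14 in males (adjusted p = 0.00036 and 1.5e-05 by limma). On Affymetrix its brightest set was higher in NOD females by 0.69 ± 0.17 (adjusted p = 0.0075), the second set by 0.51 (adjusted p = 0.026), and the male difference was 0.34 (0.22). Rpl10 was higher in NOD in both sexes on CodeLink, by 0.83 ± 0.10 and 0.40 ± 0.10 (adjusted p = 0.00012 and 0.013; the male call was lost without NOD male pool 2 (adjusted p up to 0.052)), and had no tested set of its own on Affymetrix.

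Rpl22, a large subunit protein that is dispensable for translation in mice and needed for alpha-beta T cell development, differed by strain on Affymetrix. Its signals were 4315, 4405 and 4695 for females and 3516, 3453 and 3776 for males of MRL/lpr, and 10496, 6391 and 13799.7 for females and 7141, 9514 and 9515 for males of NOD, so all 6 NOD pools lay above all 6 MRL/lpr pools. NOD was higher by 1.12 ± 0.19 in females and 1.26 ± 0.19 in males (adjusted p = 0.00024 and 4.8e-05 by limma). A second, dimmer set of Rpl22 was higher in NOD females by 0.69 (adjusted p = 0.036) and differed by 0.38 in males (adjusted p = 0.27). CodeLink gave 298, 306 and 383 for females and 207, 219 and 183 for males of MRL/lpr, and 408, 523 and 493 for females and 256, 296 and 251 for males of NOD, with differences of 0.53 ± 0.14 and 0.40 ± 0.14 (0.015 and 0.052), and the female CodeLink call was lost without MRL/lpr female pools 1 or 2 or NOD female pool 2 (adjusted p up to 0.06). A second, dimmer CodeLink probe gave 0.83 in females and -0.35 in males (adjusted p = 0.0084 and 0.22 by limma).

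Rps6, the small subunit protein that S6 kinases phosphorylate, was tested on Affymetrix, where its signals were 1074, 880.0 and 1208 for females and 618, 938 and 641 for males of MRL/lpr, and 1805, 1636 and 1527 for females and 1383, 1389 and 1343 for males of NOD. All NOD pools lay above all MRL/lpr pools. The difference was 0.64 ± 0.17 in females and 0.89 ± 0.17 in males (adjusted p = 0.02 and 0.0011 by limma), and the female call was lost without MRL/lpr female pools 1 or 2 or NOD female pools 1 or 2 (adjusted p up to 0.089). Rplp0, the stalk protein that recruits elongation factors, was higher in NOD females on Affymetrix by 0.98 ± 0.16 (adjusted p = 0.00018). CodeLink gave 552, 478 and 652 for females of MRL/lpr and 480, 381 and 446 for females of NOD, with overlap and no call.

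**Figure D5:**
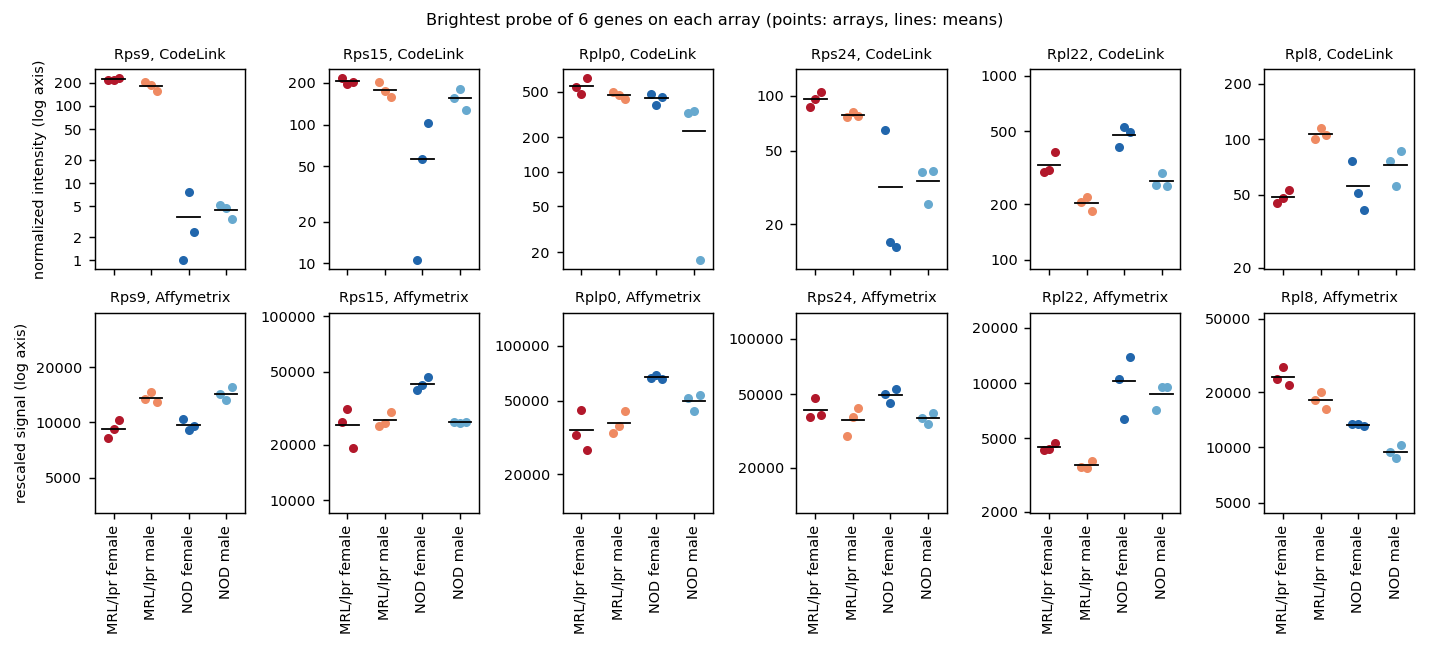
Level of 6 ribosomal protein genes in each array on both platforms, on a log scale, with a point for each of the 3 pools and a line at the mean in each of the 4 groups of sex and strain. Rps9 goes from at least 156 in every MRL/lpr pool to at most 7.65 in every NOD pool on CodeLink and does not on the brightest Affymetrix set.

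Several genes gave different results on different probes. Rps9 on CodeLink measured 219, 217 and 227 for females and 205, 187 and 156 for males of MRL/lpr, and 1.00, 7.65 and 2.31 for females and 5.25, 4.75 and 3.45 for males of NOD. NOD values lay far below MRL/lpr values in both sexes, 60.4-fold in females and 40.8-fold in males (log2 -6.09 ± 0.43 and -5.21 ± 0.43, adjusted p = 8.4e-07 and 1.4e-06 by limma), and the spot of NOD female pool 1 was near background. The brightest Affymetrix set differed by 0.08 and 0.08 (adjusted p = 0.8 and 0.79), with values given above that overlap between strains. A second set fell by 2.92 and 2.93 (adjusted p = 2.9e-06 and 2.7e-06), from 1611 to 8123 in MRL/lpr to 193 to 401 in NOD pools, and another, dim set differed by -0.86 and -0.50 (adjusted p = 0.18 and 0.46). So 2 of the 4 tested probes of Rps9 were lower in NOD by limma and 2 gave no call.

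Rps15, part of the small subunit head, was opposite on the 2 platforms. CodeLink gave 215, 197 and 204 for females and 202, 175 and 158 for males of MRL/lpr, and 10.5, 56.6 and 102 for females and 157, 181 and 126 for males of NOD, so the NOD females were the low group and spread widely. Affymetrix gave 26600.2, 31318 and 19244 for females and 25400.0, 26406 and 30052 for males of MRL/lpr, and 39964, 42450.0 and 46696 for females and 26786, 26226 and 26818 for males of NOD, where the NOD females were the high group. The sex difference in NOD was -1.94 ± 0.56 on CodeLink and 0.69 ± 0.15 on Affymetrix (adjusted p = 0.018 and 0.0023, limma), and the strain difference in females was -2.36 ± 0.56 and 0.77 ± 0.15 (0.0096 and 0.0013). The CodeLink sex call was lost without NOD male pool 2 (adjusted p up to 0.054). A second Affymetrix set gave 0.29 and 0.32 (adjusted p = 0.21 for both).

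Rps24, mutated in some human Diamond-Blackfan anemia, was lower in NOD on CodeLink, at 87.2, 95.2 and 105 for females and 76.2, 81.0 and 77.3 for males of MRL/lpr, and 65.0, 16.1 and 15.03 for females and 38.5, 25.7 and 38.8 for males of NOD. The difference was -1.90 ± 0.41 in females and -1.20 ± 0.41 in males (adjusted p = 0.0056 and 0.049), and the male call was lost without any 1 of the 6 male arrays (adjusted p up to 0.15). Its brightest Affymetrix set differed by 0.26 and 0.04 (0.32 and 0.93), and of the other 4 sets 1 was lower in NOD females (-0.68, adjusted p = 0.024) and 1 was higher in NOD males (0.74, adjusted p = 0.001).

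Rpl14, a large subunit protein, was opposite in males. CodeLink values were 52.6, 47.6 and 49.5 for females and 50.2, 44.0 and 47.8 for males of MRL/lpr, and 72.2, 49.2 and 47.5 for females and 30.8, 27.7 and 31.8 for males of NOD, with NOD males below all others and a male strain difference of -0.64 ± 0.16 (adjusted p = 0.0085, limma). Its Affymetrix set was dim, at 42.9, 13.9 and 1.35 for females and 21.0, 40.8 and 69.9 for males of MRL/lpr, and 440.1, 512 and 293 for females and 121, 188 and 229 for males of NOD, and every MRL/lpr pool lay below the 100 used as the lower limit. Against that limit NOD was at least 4.04-fold higher in females and at least 1.73-fold in males (adjusted p = 2.8e-05 and 0.031 by limma), and the male call was lost without MRL/lpr male pools 1 or 2 or NOD male pools 2 or 3 (adjusted p up to 0.14).

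Rpl8 was lower in NOD on Affymetrix in both sexes, at 23551, 27271 and 21859.9 for females and 18053, 19954 and 16242 for males of MRL/lpr, and 13328, 13396 and 13092 for females and 9476, 8749 and 10241 for males of NOD, by -0.86 ± 0.13 in females and -0.92 ± 0.13 in males (adjusted p = 4.7e-05 and 1.7e-05). CodeLink gave 45.0, 47.9 and 53.3 for females and 100.3, 115 and 105 for males of MRL/lpr, and 75.8, 51.2 and 41.0 for females and 76.4, 55.8 and 86.1 for males of NOD. Rpl39, an X-linked large subunit protein, had a dim Affymetrix set at 427, 121 and 530.5 for females and 430.4, 728 and 907 for males of MRL/lpr, and 451, 1049.7 and 697 for females and 359, 113 and 364 for males of NOD, higher in NOD females than NOD males by 1.3 ± 0.40 (adjusted p = 0.032) and lower in NOD than MRL/lpr males by -1.23 ± 0.40 (0.047). These calls of Rpl39 were lost without NOD female pools 2 or 3 or NOD male pool 2 (adjusted p up to 0.22) and without MRL/lpr male pools 2 or 3 or NOD male pool 2 (adjusted p up to 0.29). Its CodeLink probe gave 0.49 (0.13) and 0.14 (0.72).

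Single CodeLink spots also stood apart within a group. Rplp0 measured 326, 339 and 16.9 and Rps19, a Diamond-Blackfan anemia protein, 265, 259 and 29.1 in NOD males, so 1 pool of 3 was low in each, and the sex differences were 1.80 ± 0.81 and 0.95 ± 0.61 (adjusted p = 0.11 and 0.26). On Affymetrix that pool was not low, with Rplp0 at 51582, 44054 and 53665 and Rps19 at 9878, 9977 and 10432. Rps19 was higher in females there by 0.44 ± 0.14 in MRL/lpr and 0.44 ± 0.14 in NOD mice (adjusted p = 0.037 and 0.034), calls that were lost without MRL/lpr female pools 1 or 2 or MRL/lpr male pools 1 or 2 (adjusted p up to 0.16) and without NOD female pools 1 or 2 or NOD male pools 1, 2 or 3 (adjusted p up to 0.17).

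Several of the genes have known roles outside the ribosome. Rpl5 and Rpl11, which with 5S RNA bind the p53 ubiquitin ligase Mdm2, were higher in females on CodeLink in both strains. Rpl5 measured 589, 655 and 678 for females and 475, 519 and 511 for males of MRL/lpr, and 803, 708 and 781 for females and 419, 349.7 and 450.0 for males of NOD, with differences of 0.35 ± 0.11 and 0.92 ± 0.11 (adjusted p = 0.044 and 4.9e-05, limma). Rpl11 measured 459, 473 and 514 for females and 324, 352 and 341 for males of MRL/lpr, and 583, 667 and 655 for females and 347, 363 and 375 for males of NOD, with 0.50 ± 0.10 and 0.81 ± 0.10 (0.0024 and 4.1e-05). The Rpl5 call in MRL/lpr mice was lost without MRL/lpr female pools 2 or 3 or MRL/lpr male pools 1, 2 or 3 (adjusted p up to 0.13). On Affymetrix Rpl11 differed by 0.03 and 0.18 (0.93 and 0.39), and Rpl5 had no tested set of its own.

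Rpl38, which in mouse embryos is needed for translation of Hox mRNAs, was higher in NOD females than males on CodeLink (0.73 ± 0.13, adjusted p = 0.00078) and gave 0.16 on Affymetrix (0.54). Rpsa, the laminin receptor precursor, was higher in MRL/lpr females on CodeLink (0.50 ± 0.15, 0.031) and differed by 0.42 ± 0.14 on Affymetrix (0.056), and the CodeLink call was lost without MRL/lpr female pools 1, 2 or 3 or MRL/lpr male pools 1 or 3 (adjusted p up to 0.11). Rpl13a, of the interferon-gamma activated inhibitor of translation complex in human cells, was higher in NOD females on its brightest Affymetrix set (0.47 ± 0.15, 0.034). The 3 further sets gave 0.07, -0.37 and 0.11 (adjusted p = 0.85, 0.076 and 0.77). The call of the brightest set was lost without NOD female pools 1 or 2 or NOD male pools 1 or 2 (adjusted p up to 0.13). In MRL/lpr mice the last 2 of these sets were higher in females, by 0.64 and 1.097 (adjusted p = 0.0027 and 0.00026 by limma). The brightest and second sets gave 0.37 and 0.14 there (0.11 and 0.67). Between males, the last 2 sets were higher in NOD, by 0.94 and 0.71 (4.1e-05 and 0.014). The brightest and second sets gave 0.17 and 0.25 (0.54 and 0.37). Rps3, with a role in DNA repair, and Rpl3, at the peptidyl transferase centre, differed by 0.16 and 0.64 in NOD on CodeLink (0.55 and 0.024, the latter lost without NOD female pool 1 or NOD male pools 1 or 2 (adjusted p up to 0.095)), and Rps3 by 0.39 on Affymetrix (0.08).

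The remaining calls in females lay between these. On CodeLink the other 34 genes higher in NOD females than males ran from 0.46 for Rpl7 to 1.06 for Rps7, and the female and male pools of Rpl7 overlapped. On Affymetrix Rpl7 (0.56 ± 0.16), Rpl7a (0.53 ± 0.14), Rpl8 (0.48 ± 0.13) and Rps20 (0.39 ± 0.12) were also higher in NOD females than males. A second, similarly bright set of Rps20 gave 0.17 (adjusted p = 0.45 by limma), and 2 dim sets gave 0.72 and -0.41 (0.42 and 0.61). The other sets of Rpl7 gave 1.27 and 0.52 (1.8e-07 and 0.36). Between strains, Rpl35 (0.66 ± 0.13) and Rpl41 (0.63 ± 0.12) were among the genes higher in NOD females on CodeLink. Of the 59 genes tested on either platform, 50 were called in at least 1 of the sex or strain comparisons, compared with 52.2% of all genes tested on either platform. These counts rest on the brightest probe of each gene. The 9 with no call on it were Rpl30, Rpl39l, Rps2, Rps3, Rps13, Rps25, Rps27, Rps28 and Rps29, which were chosen after their values were seen. A dimmer Affymetrix set of Rps29 was called for sex in NOD mice (0.98) and for strain in males (-0.80), with limma adjusted p of 0.00031 and 0.0028. For these comparisons the brightest Rps29 set gave 0.24 and -0.17 (0.39 and 0.60), and the remaining set 0.38 and -0.19 (0.085 and 0.45).

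The X-linked genes were Rpl10, Rpl36a, Rpl39 and Rps4x, and the 60 genes lay on 18 chromosomes. On CodeLink Rpl36a was 447, 447 and 524 for females and 348, 356 and 293 for males of MRL/lpr, and 581, 565 and 512 for females and 306, 347 and 323 for males of NOD, higher in females by 0.51 ± 0.12 in MRL/lpr and 0.76 ± 0.12 in NOD mice (adjusted p = 0.0064 and 0.00023). Rps4x differed by 0.39 ± 0.20 and 0.88 ± 0.20 (0.2 and 0.0043), and on Affymetrix by -0.03 and 0.32 (0.92 and 0.16). Of the 4, Rpl10 was the 1 gene called lower in MRL/lpr females, and Rpl39 differed there by -0.97 ± 0.40 on Affymetrix (adjusted p = 0.13). Only 2 of the X-linked genes, Rpl39 and Rps4x, had a tested Affymetrix set of their own. Neither was called on both platforms in the same direction.

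Paralogs were measured where they had probes of their own. Rps27l, a p53 target and near copy of Rps27, was higher in NOD females than males on CodeLink and on its brightest Affymetrix set. The differences were 0.82 ± 0.12 and 0.45 ± 0.13 (adjusted p = 0.00015 and 0.022, limma). That Affymetrix call was lost without NOD female pools 2 or 3 or NOD male pools 1 or 2 (adjusted p up to 0.12). The dimmer Affymetrix sets of Rps27l gave 0.28 and 0.12 for the same comparison (adjusted p = 0.42 and 0.62 by limma). In MRL/lpr mice these dimmer sets were lower in females, by -0.72 and -0.47 (adjusted p = 0.019 and 0.014), and the brightest gave -0.05 (0.86). Between the sexes of NOD mice, Rps27 itself differed by -0.41 and 0.04 (0.49 and 0.96), with NOD female values spread from 67.1 to 296 on CodeLink. Rpl39l, known as the testis paralog of Rpl39, was dim on both platforms and gave no call in any comparison. Rpl3l, the muscle paralog of Rpl3, was near background on all CodeLink arrays and was not tested.

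Many ribosomal protein genes share Affymetrix probe sets with pseudogenes or other loci, so these sets were kept out of the counts above. Beside them, 95 such sets named 40 of the genes, 26 of which had no set of their own. In MRL/lpr mice 14 sets were higher in females and 2 lower (median 0.20), and in NOD mice 34 and 0 (0.37). By strain 8 were higher in NOD females and 2 lower (0.21), and 6 and 4 in males (0.03). After quantile normalization the counts were 21 and 2, 23 and 1, 3 and 4, and 8 and 7, with medians of 0.16, 0.13, 0.01 and -0.01. The shares of all genes called higher and lower in these 4 comparisons were those given above for the single-gene Affymetrix sets.

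The rest of the translation machinery was read from lists chosen with earlier results known. The shares of all tested genes called higher and lower in females, beside which the counts stand, on CodeLink were 15.9% and 7.61% for the MRL/lpr strain, 22.7% and 13.0% for the NOD strain, and 7.31% and 6.65%, and 6.97% and 9.46%, on Affymetrix. Mitochondrial ribosomal proteins, which build a separate ribosome, were higher in NOD females in 24 of 64 on CodeLink and lower in 0 (median 0.26), and in 6 and 0 of 74 on Affymetrix (0.10), and in MRL/lpr mice 7 and 2 on CodeLink (0.06) and 4 and 4 on Affymetrix (-0.02). After quantile normalization the NOD counts were 10 and 2 on CodeLink (0.09) and 6 and 0 on Affymetrix (0.10), and the MRL/lpr counts were 4 and 5 (0.02) and 4 and 4 (-0.03). Elongation factors were higher in NOD females in 4 of 9 and 2 of 8 (0.59 and 0.29), with none lower, and in 2 and 3 after quantile normalization (0.24 and 0.21). Among them Eef1b2, the guanine nucleotide exchange factor subunit of elongation factor 1, was higher in females of both strains on both platforms, by 0.60 and 1.07 on CodeLink and 0.97 and 1.04 on Affymetrix (adjusted p = 0.017, 0.00023, 9.9e-05 and 2.8e-05 by limma). Initiation factors were higher in NOD females in 11 and lower in 3 of 37 on CodeLink (0.40), and 9 and 4 of 42 on Affymetrix (0.26), and after quantile normalization in 5 and 4 (0.11) and 6 and 4 (0.19).

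Ribosome assembly factors were higher in MRL/lpr females in 7 of 26 and lower in 1 on CodeLink (0.30), and in NOD females in 5 and 0 (0.28), compared with 2 and 1, and 5 and 1, of 27 on Affymetrix (0.19 and 0.15). After quantile normalization these were 5 and 2 (0.24) and 3 and 0 (0.07) of 25 on CodeLink, and 1 and 1 (0.17) and 5 and 1 (0.14) on Affymetrix. Subunits and initiation factors of RNA polymerase I, which makes ribosomal RNA, gave 2 and 0 of 11 in each strain on CodeLink (0.27 and 0.27), and 0 and 0, then 0 and 1, of 12 on Affymetrix (0.08 and 0.08). Ribosomal proteins of other symbols, such as Fau and Rplp2, were higher in NOD females in 4 of 6 on CodeLink (0.51) and 0 of 5 on Affymetrix (0.05), and after quantile normalization in 1 (0.12) and 0 (0.07). Of the mTOR and Myc regulators, 0 of 10 were higher and 2 lower in MRL/lpr females on CodeLink (-0.31), and 0 and 3 of 15 on Affymetrix (-0.39). In NOD females the counts were 2 and 0 (0.28) and 0 and 1 (-0.11). The translation repressor Eif4ebp2 was lower in MRL/lpr females on both platforms, by -0.82 and -1.23 (adjusted p = 0.012 and 0.00012).

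Proteasome subunits, another abundant complex, were higher in females in 9 and lower in 0 of 35 in MRL/lpr mice and in 14 and 3 in NOD mice on CodeLink (0.34 and 0.41), and in 5 and 1, and 11 and 3, of 38 on Affymetrix (0.26 and 0.25). After quantile normalization the counts were 8 and 0, and 6 and 3, on CodeLink (0.26 and 0.15) and 5 and 1, and 10 and 3, on Affymetrix (0.26 and 0.28). The NOD exceptions included the inducible subunits of the immunoproteasome, with Psmb8 at -2.63 and Psmb9 at -2.47 on CodeLink (adjusted p = 1.3e-05 and 9e-06, limma). No list was tested against another.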

How the data were processed

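RNA was purified from pooled exorbital lacrimal glands, and biotin-labelled cRNA was hybridized to CodeLink UniSet Mouse 20K I and Affymetrix 430A arrays, 12 of each, with 3 pools in each group of sex and strain. The authors deposited CodeLink intensities as spot mean minus median local background, divided by 1 factor per array, and Affymetrix signal intensities from GCOS, as the submitters' processing notes name it, while the study's methods name Affymetrix Microarray Suite. Promoter sequences were taken from RefSeq on GRCm38.p6. Because the deposited Affymetrix trimmed means ran from 26.9 to 74.1, each array was rescaled to a 2% trimmed mean of 500.

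Probes were named through the platform annotation: 11377 of 17440 CodeLink probes had 1 gene symbol, 0 several and 6063 none, and for Affymetrix 20380 of 22626 had 1, 691 several and 1555 none. A gene was read from its brightest probe with 1 gene. Probes over 0.5 (CodeLink) or 100 (Affymetrix) in at least 3 arrays, with 2 values per group, were kept, leaving 13105 and 16167 probes for 8728 and 9552 genes. Values were tested as log2(value + 0.5) or log2(value + 50) with limma 3.58.1 in R 4.3.3 (lmFit, eBayes with an intensity trend), separately per platform and over all 12 arrays, with Benjamini-Hochberg adjustment over all tested probes and a threshold of 0.05. Fold changes of dim genes are understated on this scale. Pools are labelled as biological replicates, and their number limits the precision.

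Genes named with values were those with the largest non-overlapping differences in each comparison (up to 3 in each direction), genes with known extra-ribosomal roles or paralogs, and up to 3 genes against the majority; others named were chosen after their values were seen. The genes, the lists (8 of translation and the proteasome, and 13 of cell type markers) and the tests were chosen with earlier results of these data known. The tests were checked on simulated data. Alternatives covered quantile normalization, unscaled Affymetrix signals, pseudocounts, filters, the variance trend, probe averaging, scanner intensities with normexp correction, exclusion of spots marked by the scanner software, a replicate block, the methods' t-test and single arrays left out.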

Additional observations from a re-analysis of the deposited data

Results flagged for a closer look

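The sex difference differed between the strains, by limma's test of the difference in NOD minus that in MRL/lpr mice, for 10 genes on CodeLink and 3 on Affymetrix. On CodeLink these were Rpl26 (1.16, adjusted p = 0.0054), Rps21 (0.88, 0.0042), Rpl14 (0.79, 0.023), Rps7 (0.69, 0.012), Rps27l (0.66, 0.013), Rpl37 (0.57, 0.044), Rpl5 (0.57, 0.025), Rpl41 (0.53, 0.047), Rpl37a (0.50, 0.047) and Rpl32 (0.48, 0.043), all on the log2 scale and all larger in NOD mice. On Affymetrix they were Rpl39 (2.27, 0.010), Rps15 (0.80, 0.016) and Rps26 (0.59, 0.038). After quantile normalization Rpl26 on CodeLink (0.93, adjusted p = 0.033) and Rpl39 (2.40, 0.0092) and Rps15 (0.66, 0.0035) on Affymetrix were called, and the other 10 were not. Before quantile normalization no gene was called on both platforms, and after it Rps15 was also called on CodeLink in the opposite direction (-2.49, adjusted p = 0.039). On CodeLink the 820 other genes among the brightest 10% of those tested had a median of 0.34, beside 0.33 for the ribosomal protein genes. Leaving out 1 array ended the calls of Rpl32, Rpl37a and Rpl41 in 10 of 12 fits each, of Rpl37 in 9, of Rps26 in 8, of Rpl5 in 4 and of Rpl14 in 2.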

How the results depend on the processing

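Several counts and medians depended on the scaling between arrays. Quantile normalization left 12, 23, 8, 14 and 2 genes passing on CodeLink (sex in MRL/lpr, sex in NOD, strain in females, strain in males, and the difference of the sex differences) and 9 for sex in NOD on Affymetrix. Medians in the first 3 and the last comparison were 0.22, 0.24, -0.0604 and 0.0402 on CodeLink and 0.0848, 0.10, 0.0373 and 0.0318 on Affymetrix, so the median for strain in females reversed on CodeLink, as did Rpl11 for strain in females (-0.0385) and Rpl32 for the difference of sex differences (-0.13). Scanner intensities with normexp and quantile normalization gave 12, 20, 7, 15 and 4 passing, medians of 0.21 for sex in NOD, -0.0436 for strain in females and -0.0111 for the difference of sex differences, and reversed Rpl11 (-0.0229) and Rpl32 (-0.17). Over all 8710 genes they called 1315 higher and 813 lower, 1335 and 1346, 815 and 967, 1498 and 1031, and 812 and 1171. Unscaled Affymetrix signals gave medians of 0.52, -0.19, -0.20, 0.60 and -0.82 in the same order, with 1 passing for sex in NOD, 2 for strain in females, 12 for strain in males and 8 for the last, and reversed Rpl13a (-0.13), Rps19 (-0.15) and Rps27l (-0.14) for sex in NOD and Rps15 (-0.30) and Rps26 (-0.49) for the last. Over all genes these signals called 611 higher and 59 lower, 63 and 1123, 43 and 569, 936 and 36, and 15 and 1487. Probe means gave 8 for sex in MRL/lpr on Affymetrix, where 683 of all genes were called higher and 616 lower. No filter gave 6 for the last comparison on CodeLink and 2 for sex in MRL/lpr on Affymetrix. Over all genes this gave 881 and 931 of 10935, and 595 and 570 of 12393. Without the variance trend the last comparison had 6 on CodeLink and 0 on Affymetrix, where sex in MRL/lpr had 0 and sex in NOD 5. Over all genes these were 967 and 981, 209 and 558, 461 and 415, and 441 and 727. Without MRL/lpr female pool 1 and NOD female pool 3, chosen after seeing the data, 13 passed for sex in MRL/lpr, 14 for strain in females and 6 for the last on CodeLink, and 2, 9, 5 and 1 on Affymetrix for sex in MRL/lpr, sex in NOD, strain in females and the last. The calls over all genes without these pools are given above. The methods' t-test with Benjamini-Hochberg adjustment gave 11, 25, 6 and 4 on CodeLink and 0, 9, 1 and 1 on Affymetrix. Its calls over all genes were 710 higher and 480 lower, 986 and 658, 505 and 215, and 992 and 613 on CodeLink. On Affymetrix these were 48 and 98, 294 and 458, 25 and 33, and 317 and 248. At an unadjusted p under 0.05 it called 30 ribosomal protein genes higher and 2 lower for sex in MRL/lpr on CodeLink (22.1% and 12.5% of all genes), and 5 and 1 on Affymetrix (10.7% and 10.4%), where limma called 5. Leaving out single arrays gave 12 to 20 passing for sex in MRL/lpr and 5 to 11 for the last comparison on CodeLink, and 2 to 8, 6 to 13, 7 to 14 and 2 to 9 on Affymetrix (sex in MRL/lpr, sex in NOD, strain in females, last), with medians of 0.0858 to 0.219 for sex in MRL/lpr and 0.21 to 0.37 for strain in females. No named gene reversed among 510 such fits, and 120 lost their call. Over all genes, calls higher and lower were 902 to 1237 and 524 to 582 for sex in MRL/lpr on CodeLink. For the last comparison there they were 750 to 1152 and 836 to 1011. On Affymetrix they were 458 to 621 and 442 to 621 for sex in MRL/lpr, and 482 to 555 and 647 to 812 in NOD. For strain in females and the last comparison they were 255 to 400 and 423 to 617, and 328 to 506 and 556 to 706. Same-numbered pools did not deviate together in every pair (correlations from -0.08 to 0.12), so the numbers do not pair the samples. With the replicate number as a block 19, 37, 24, 9 and 7 passed on CodeLink and 4, 14, 9, 6 and 3 on Affymetrix, and 4 of 72 named calls were lost. Calls over all genes were 1392 higher and 670 lower, 2041 and 1129, 1468 and 812, 1488 and 891, and 1014 and 993 on CodeLink. On Affymetrix they were 711 and 632, 680 and 909, 394 and 667, 705 and 662, and 448 and 710. The cause of these changes was not tested. A slide block was not run, as no slide is named in the columns used here, and leaving out spots marked by the scanner software changed none of 48 named calls on CodeLink.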
